A study of Mus musculus with 23 samples.

Results

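Hepcidin and the genes that handle iron were read in mouse liver, as 10 genes found by symbol among the 24440 in the deposited counts. They are the hepcidin genes Hamp and Hamp2, the transferrin receptor genes Tfrc and Tfr2, the transferrin gene Trf, the ferroportin gene Slc40a1, the ferritin chain genes Fth1 and Ftl1, the BMP ligand gene Bmp6 and the BMP target gene Id1. All 10 were among the 12891 genes that passed the filter on low counts. The 23 RNA-seq libraries came from perfused livers of male C57Bl/6 mice that came from Taconic Farms at 6 to 8 weeks of age. Mice labelled IL-10/4 dKO (dKO, lacking IL-10 and IL-4), IL-4 KO (IL4KO) and WT were fed for 15 weeks, either a high-fat diet with 60% of its calories from fat (HFD) or normal chow. The groups were dKO_HFD, dKO_chow, IL4KO_chow, WT_HFD and WT_chow with 4 libraries each, and IL4KO_HFD with 3. The dKO mice lack IL-4 as well as IL-10, and no group lacked IL-10 alone. Loss of IL-10 was therefore compared only where IL-4 was also missing, through dKO against IL4KO. Neither deletion was stated to be restricted to a cell type.

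Hepcidin is a peptide hormone that hepatocytes secrete. It binds ferroportin, the cellular iron exporter, and causes its degradation, so that less iron enters the plasma. In mouse liver, Bmp6 from sinusoidal endothelial cells signals through SMAD proteins to switch on Hamp and Id1, inflammatory cytokines such as IL-6 add a signal through STAT3, and the protease Tmprss6 restrains the BMP arm. Iron regulatory proteins bind hairpins called iron-responsive elements (IREs) in messenger RNAs, where they stabilise Tfrc RNA and block translation of the ferritins and ferroportin when iron is scarce.

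The promoters of both hepcidin genes are shown because the reads of these paralogs were hard to separate and because they differ inside the BMP element. The windows around the start sites are from RefSeq (GRCm38.p6, minus strand, chr7:30943980-30944279 for Hamp and chr7:30924132-30924431 for Hamp2). Capitals mark the BMP-responsive element GGCGCC and the STAT site TTCNNNGAA, searched on both strands.
Hamp: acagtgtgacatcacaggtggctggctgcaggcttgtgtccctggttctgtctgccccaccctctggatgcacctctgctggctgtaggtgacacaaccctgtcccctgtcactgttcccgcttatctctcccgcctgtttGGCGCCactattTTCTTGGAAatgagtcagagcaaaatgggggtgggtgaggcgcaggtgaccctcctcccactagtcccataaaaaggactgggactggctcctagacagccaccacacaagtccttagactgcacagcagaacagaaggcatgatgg
Hamp2: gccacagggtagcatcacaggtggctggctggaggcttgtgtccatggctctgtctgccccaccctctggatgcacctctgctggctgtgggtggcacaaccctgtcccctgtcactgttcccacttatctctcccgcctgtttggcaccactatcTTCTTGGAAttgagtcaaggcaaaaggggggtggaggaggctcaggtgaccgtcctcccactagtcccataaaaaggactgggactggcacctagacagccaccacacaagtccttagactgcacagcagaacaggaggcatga
In Hamp, GGCGCC began 109 bases and TTCNNNGAA 97 bases before the start site. In Hamp2 the STAT match began 94 bases before the start site and the BMP letters were not in the window. The aligned windows were 92.9% identical, with 21 substitutions over 297 aligned bases, of which G145A lay inside the BMP element (positions count from 1 at the first base of the Hamp window, Hamp base first). Of 32851 promoter windows of this length, 11.9% held GGCGCC and 8.3% held TTCNNNGAA. The table had entries for 7 of the 10 genes, and a Tfrc window also held GGCGCC.

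The IREs of the receptor, exporter and storage genes are shown because the same hairpin sits at opposite ends of these RNAs. They were found in GENCODE vM21 transcripts (GRCm38) as a bulged C, 5 bases, the loop CAGTGN in capitals, and 5 bases that pair with the first 5.
Tfrc, 3′ UTR, chr16:32631220-32631246, plus strand: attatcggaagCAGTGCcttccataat
Slc40a1, 5′ UTR, chr1:45925466-45925492, minus strand: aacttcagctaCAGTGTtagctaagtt
Fth1, 5′ UTR, chr19:9982733-9982759, plus strand: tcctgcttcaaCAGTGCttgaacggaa
Ftl1, 5′ UTR, chr7:45459780-45459806, minus strand: tcttgcttcaaCAGTGTttgaacggaa
Tfrc held 4 such hairpins in its 3′ UTR, of which the first is printed, and Slc40a1, Fth1 and Ftl1 held 1 each in the 5′ UTR. The pattern matched 0.473% of annotated 3′ UTRs and 0.117% of 5′ UTRs, and was not found in the other 6 genes.

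Library totals ran from 7110000 to 30200000 counts (to 3 significant digits). The dKO_chow libraries each held 16200000 to 30200000 and the 3 IL4KO_HFD libraries 7790000 to 8940000. Il4 had 0 to 3 counts per library. Il10 had 41 to 67 counts in libraries labelled dKO_chow and 6 to 21 in those labelled dKO_HFD, against 0 to 4 in WT, which goes against the label. Gene totals cannot tell reads of a deleted allele from those of an intact one, and dKO below stands for the libraries labelled dKO. Markers of other cells moved with dKO on chow. The summed neutrophil markers (10 genes) were at 129 to 414 CPM (counts scaled to library size) in dKO_chow against 2.63 to 27.5 CPM in WT_chow. Markers of monocyte-derived macrophages (8 genes) summed to 642 to 1030 CPM in dKO_chow against 79 to 124 CPM in WT_chow. Spp1 is in this list and in the cholangiocyte list, so these sums are not independent, and its part in them was not tested. Cholangiocyte markers (8 genes) were at 464 to 838 against 44.7 to 52.5 CPM, Kupffer cell markers (10 genes) at 939 to 1190 against 348 to 639 CPM, and hepatocyte markers (12 genes) at 106000 to 123000 against 140000 to 143000 CPM, with none of the genes of these 3 lists at 0 throughout either group. Among neutrophil markers 1 of 10 was at 0 in all WT_chow libraries. Markers of liver sinusoidal endothelium (10 genes), the source of Bmp6 named above, summed to 391 to 465 CPM in dKO_chow and 461 to 480 CPM in WT_chow. The ranges overlapped, and of these genes 1 was called higher and 4 lower, against 24.4% and 21.9% of all genes. dKO_HFD replicate 4 lay apart from its group, with neutrophil markers at 58.3 CPM against 2.56 to 4.09 CPM in the other 3 dKO_HFD libraries. On HFD, hepatocyte markers summed to 158000 to 167000 CPM in dKO against 132000 to 150000 CPM in WT, with 4 of 12 called higher and 1 lower. Cholangiocyte markers on HFD summed to 108 to 302 CPM in dKO against 70.7 to 105 CPM in WT, with 7 of 7 tested called higher. Of all genes, 12.9% were called higher and 11.6% lower there. IL4KO_HFD replicate 2 also lay apart, with hepatocyte markers at 108000 CPM against 147000 and 153000 CPM in the other IL4KO_HFD libraries, macrophage markers at 308 against 83.5 and 93.9 CPM, stellate cell markers at 767 against 327 and 396 CPM and cholangiocyte markers at 170 against 43 and 48.7 CPM. In bulk liver, fewer cells of a type and less RNA per cell cannot be told apart, and the part of these shifts in the results below was not tested.

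More of the iron genes were called in dKO against WT on chow than in any other comparison, where a gene was called at an FDR (Benjamini-Hochberg adjusted p over all tested genes) below 0.05 in edgeR's quasi-likelihood test. There 2 of 10 rose (Tfrc and Trf) and 6 fell (Hamp, Hamp2, Slc40a1, Ftl1, Bmp6 and Id1), where 24.4% of all tested genes were called higher and 21.9% lower. The median log2 fold change of the 10 was -0.483, against 0.0239 over all tested genes. In dKO against IL4KO on chow, 2 rose and 5 fell, against 23% and 22.2% of all genes (medians -0.586 for the 10 and 0.00752 for all). On HFD, 0 rose and 5 fell in dKO against WT, where 12.9% of genes were called higher and 11.6% lower (medians -0.335 and 0.0124). In dKO against IL4KO on HFD, 0 rose and 2 fell, against 0.946% and 1.56% of genes (medians -0.322 and 0.00259).

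HFD against chow called 2 higher and 3 lower in WT, where 9.63% and 9.84% of genes were called (medians 0.0488 and -0.00291). In IL4KO 0 rose and 2 fell, against 5.14% and 3.94% of genes (medians -0.0263 and -0.000264). In dKO 0 rose and 2 fell, where 19.4% of genes were called higher and 20.5% lower, so the members' share was at or below that of all genes (medians -0.0995 and -0.0197). IL4KO against WT called 0 of the 10 in edgeR on either diet, with 5.93% of genes higher and 3.68% lower on chow and 1.73% and 1.29% on HFD. On chow none of the 10 had an unadjusted p under 0.05. A fit of IL4KO and WT on chow alone called Hamp higher (0.59, FDR 0.0229, against 0.721 in the main fit). The same fit called Hamp2 lower (-0.63, FDR 0.0181, against 0.696 in the main fit). Each was called in 1 of 35 alternatives, and the split of reads between these paralogs is uncertain, as described below. The diet effects themselves were compared as interactions. The difference between the diet effect in dKO and in WT called 1 gene higher (Bmp6) and 1 lower (Trf), against 12.6% and 12.6% of genes, and that between dKO and IL4KO called 0 higher and 1 lower (Trf), against 12.7% and 11.7%. Between IL4KO and WT it called 0 in either direction, where 0.0155% and 0.031% of genes passed. Comparisons that use the same group of libraries are not independent of each other.

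**Figure D1:**
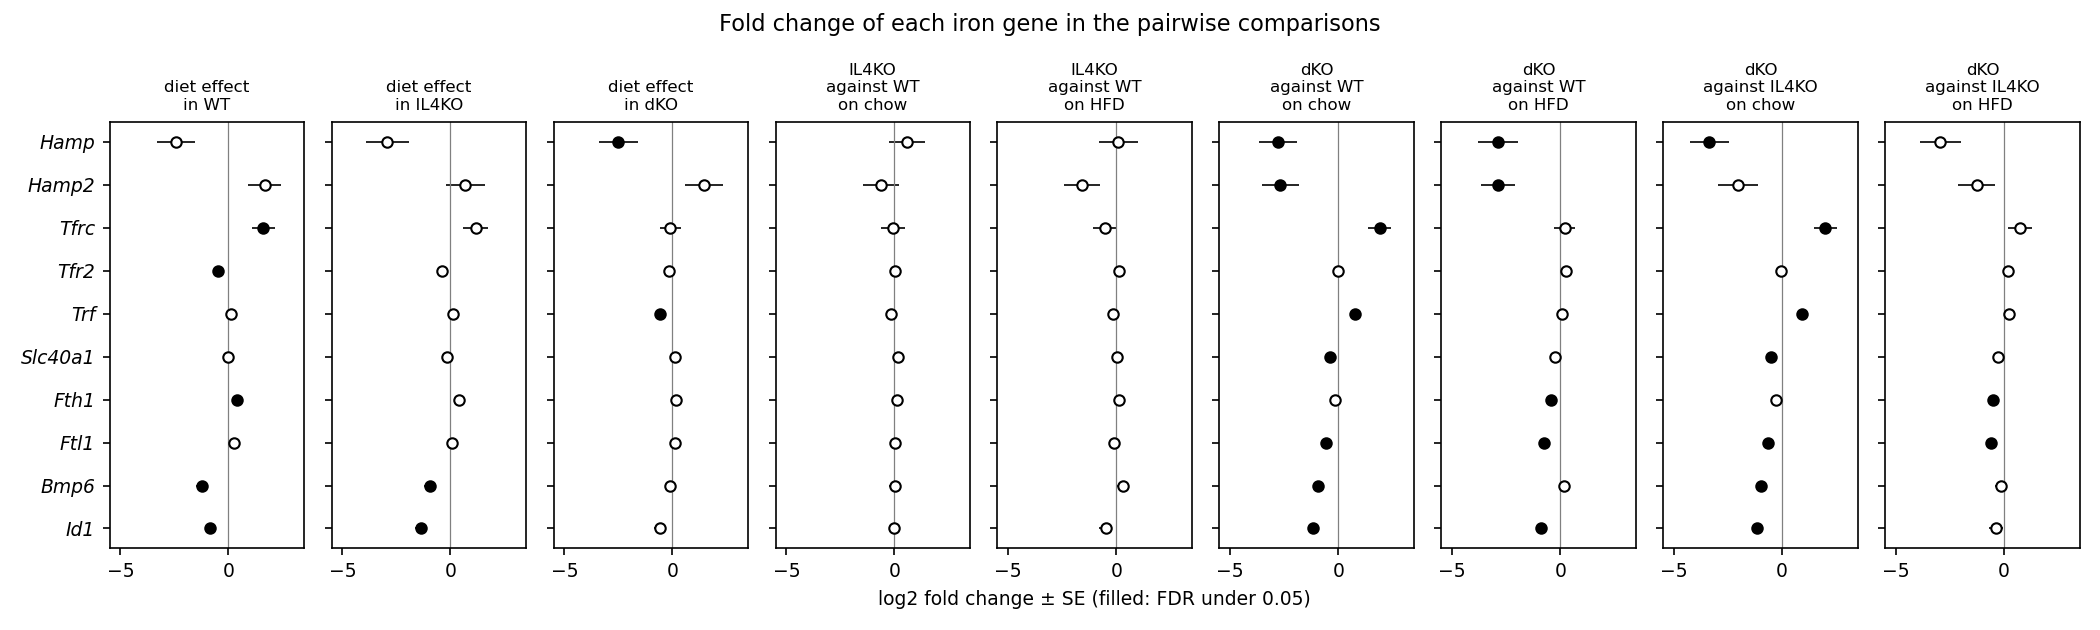
Log2 fold change (x axis) with its standard error for each of the 10 iron genes (rows) in the 9 pairwise comparisons (panels), with filled points where the FDR was below 0.05. Hamp lay left of 0 in all 3 diet effects and in all 4 comparisons of dKO with WT or IL4KO.

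Hamp, the main hepcidin gene of the mouse, fell in dKO against WT on both diets, and its mean on HFD was below that on chow in each genotype, where the genotype that passed the test depended on the fit. It stood at 11.5, 16.9, 28.9 and 0.234 CPM in dKO_HFD against 68, 202, 44.6 and 17.8 CPM in dKO_chow. In IL4KO it was at 11.5, 43.1 and 290 CPM on HFD against 952, 759, 997 and 757 CPM on chow. WT_HFD had 125, 91.6, 138 and 76.9 CPM against 720, 452, 580 and 551 CPM in WT_chow. The diets did not overlap in WT or IL4KO, and they overlapped in dKO, where dKO_HFD replicate 4 held 3 Hamp counts. On chow the dKO libraries all lay below WT, with a log2 fold change of -2.79 (SE 0.888, FDR 0.0161), and below IL4KO (-3.38, SE 0.91, FDR 0.00599). On HFD the fall in dKO against WT was -2.88 (SE 0.909, FDR 0.0288), and dKO against IL4KO was at -2.96 without passing (FDR 0.103). The diet effect passed in dKO (-2.50, SE 0.895, FDR 0.0339) and did not pass in WT (-2.42, SE 0.876, FDR 0.0616) or IL4KO (-2.92, SE 1, FDR 0.078), with sizes of the same order in each. The call in dKO was lost without dKO_chow replicate 2 (-1.56, FDR 0.174) and without dKO_HFD replicate 1, 2 or 4 (FDR 0.0518 to 0.0789), and that in IL4KO was gained without its HFD replicate 3 (-4.98, FDR 0.00782) or dKO_HFD replicate 4 (-2.92, FDR 0.0389). Fitted with each genotype alone, the diet effect passed in WT (-2.41, FDR 0.000372). It did not pass in such fits of dKO (-2.48, FDR 0.114) or IL4KO (-2.91, FDR 0.199). Limma-voom gave FDR 0.0709 in dKO. In IL4KO, limma-voom (FDR 0.0286) and the deposited log2 values (FDR 0.0186) passed. DESeq2 and the fit without robust estimation kept the call in dKO. With both, the diet effect also passed in WT (FDR 0.032 and 0.0359) and IL4KO (FDR 0.0248 and 0.047). In WT it also passed without dKO_HFD replicate 4 (-2.42, FDR 0.0299), while the fall against WT on HFD did not pass without WT_HFD replicate 1 or 3 or dKO_HFD replicate 1 or 2 (FDR 0.0539 to 0.0628), or in a fit of the compared groups (FDR 0.0524). No interaction of Hamp passed, with differences between diet effects of -0.50 to 0.42 (FDR 0.844 to 0.967).

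Hamp2, a mouse paralog of Hamp, was lower in dKO than in WT on both diets. It was at 3.39, 4.62, 10.3 and 0 CPM in dKO_HFD against 64.3, 12.9, 54 and 12.4 CPM in WT_HFD. On chow it was at 0.431, 4.81, 0.584 and 0.187 CPM in dKO against 9.8, 13.9, 9.69 and 11.2 CPM in WT. All dKO libraries lay below WT on both diets, with log2 fold changes of -2.88 (SE 0.781, FDR 0.013) on HFD and -2.68 (SE 0.865, FDR 0.0173) on chow. Without dKO_chow replicate 2 the value on chow was -4.82 (FDR 0.00198), limma-voom lost the call on chow (FDR 0.0659), and a fit of the compared groups lost that on HFD (FDR 0.0767). IL4KO had 14.2, 16.8 and 3.64 CPM on HFD and 6.4, 7.5, 6.01 and 9.05 CPM on chow. Against IL4KO, dKO did not pass on chow (-2.05, FDR 0.0761), where the genotypes did not overlap, or on HFD (-1.27, FDR 0.448), where they overlapped. On chow this comparison passed in 4 of 35 alternatives. The diet effect did not pass in WT (1.67, FDR 0.129), IL4KO (0.69, FDR 0.676) or dKO (1.47, FDR 0.195), and without dKO_chow replicate 2 that in dKO was 3.61 (FDR 0.02).

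**Figure D2:**
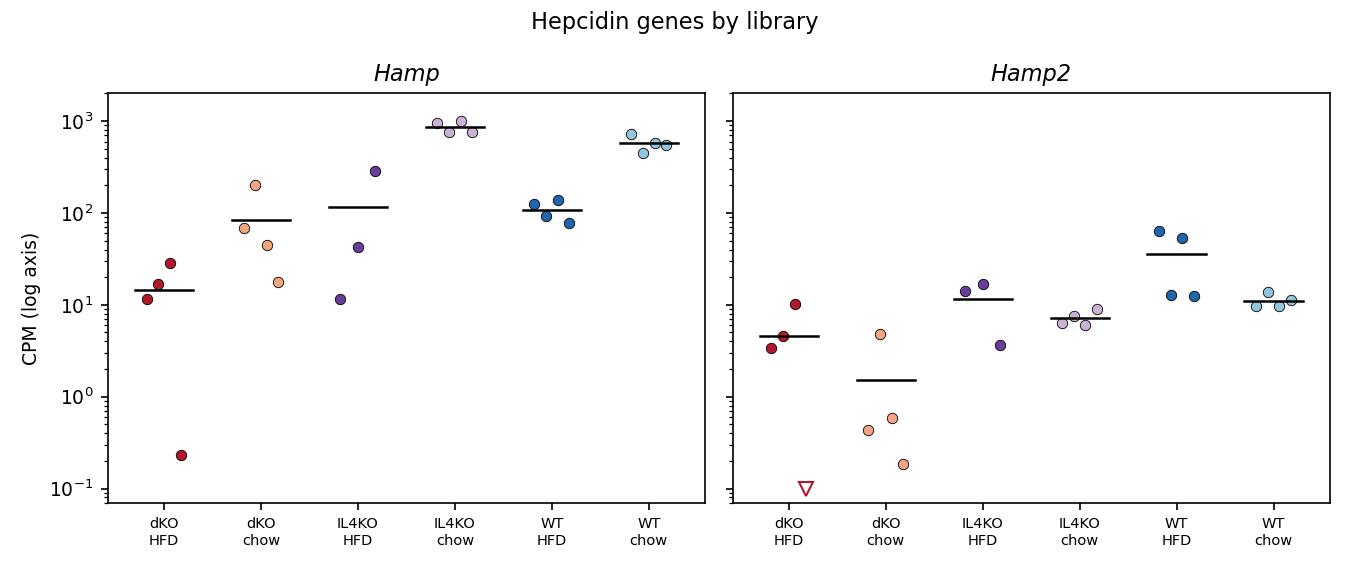
CPM of Hamp (left) and Hamp2 (right) in each library on a log axis, with a line at the group mean and an open triangle for a library at 0. Hamp in IL4KO_chow and WT_chow lay between 452 and 997 CPM, above every other library.

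Reads were shared between the hepcidin genes. The sum of their deposited counts was whole within 0.05 in 23 of 23 libraries, while Hamp alone was whole in 8, and the GENCODE transcripts of Hamp and Hamp2 were 94.6% identical with a longest identical run of 87 bases. How the authors divided shared reads is not given in the sources used here, so the split between the 2 genes is uncertain. The share of the sum assigned to Hamp2 was 22.7%, 21.4%, 26.2% and 0% in dKO_HFD, the last of 3 counts, against 0.631% to 2.33% in dKO_chow. It was 55.1%, 28% and 1.24% in IL4KO_HFD against 0.6% to 1.18% in IL4KO_chow, and 12.3% to 33.9% in WT_HFD against 1.34% to 2.99% in WT_chow. All 4 WT_HFD libraries lay above WT_chow, while IL4KO_HFD replicate 3 lay just above IL4KO_chow and dKO_HFD replicate 4 below dKO_chow. The share was singled out after its values were seen and is given as a description with no test.

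**Figure D3:**
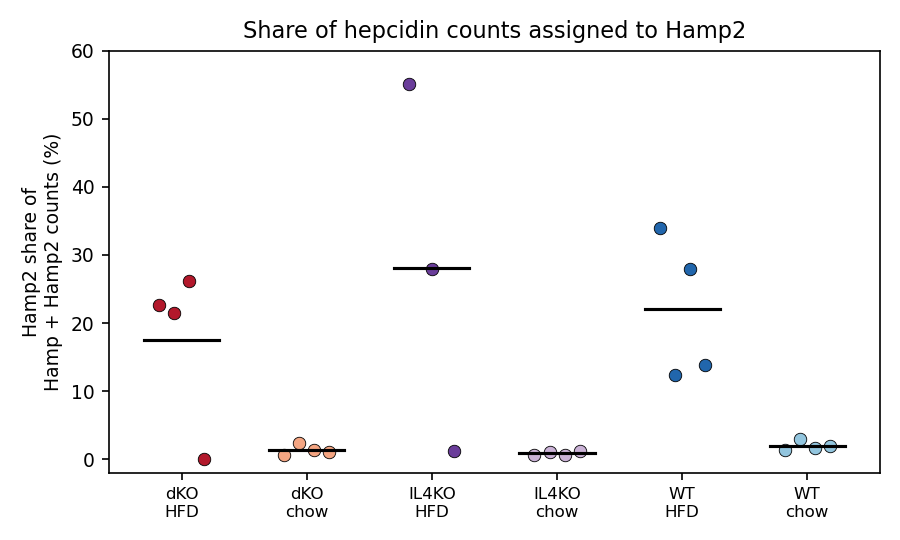
Share of the summed Hamp and Hamp2 counts assigned to Hamp2 (percent) in each library, with a line at the group mean. Every chow library lay at or below 2.99%, and WT_HFD lay between 12.3% and 33.9%.

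Bmp6, the ligand that reports liver iron to hepatocytes, was lower on HFD in WT and IL4KO and lower in dKO on chow. It was at 2.56, 2.84, 3.16 and 1.41 CPM in dKO_HFD against 2.39, 3.44, 3.03 and 2.01 CPM in dKO_chow. IL4KO_HFD had 2.86, 2.79 and 2.7 CPM against 7.23, 5.6, 4.29 and 3.9 CPM in IL4KO_chow. WT_HFD had 2.02, 2.69, 1.4 and 2.67 CPM against 4.9, 4.16, 5.8 and 6.39 CPM in WT_chow. The WT_chow and IL4KO_chow libraries thus lay above the other 15. The diet effect was -1.24 in WT (SE 0.251, FDR 0.00176), -0.93 in IL4KO (SE 0.286, FDR 0.0428) and -0.11 in dKO (FDR 0.761), and it differed between dKO and WT (difference 1.13, SE 0.347, FDR 0.0228). On chow dKO fell by 0.95 against WT (FDR 0.00237) and by 0.96 against IL4KO (FDR 0.00248). The call in IL4KO was lost without any of 8 single libraries, all 3 of IL4KO_HFD, IL4KO_chow replicates 1 and 2, WT_chow replicates 1 and 3 and WT_HFD replicate 1 (FDR 0.0501 to 0.172). It was also lost with limma-voom (FDR 0.0873), the deposited log2 values (FDR 0.133), a fit of IL4KO alone (FDR 0.0752), no filter (FDR 0.0528) and thinning (FDR 0.0512). This call was kept in 21 of 35 alternatives. The difference between dKO and WT was kept in 34 of 35, and lost with the deposited log2 values (0.85, FDR 0.0909). Txndc5 overlaps Bmp6 on the opposite strand, and the strand setting of the counting is not given in the sources used here.

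Id1, a BMP target that encodes an inhibitor of helix-loop-helix transcription factors, was lower on HFD in WT and IL4KO and lower in dKO than in WT on both diets. It stood at 2.71, 1.61, 3.25 and 3.12 CPM in dKO_HFD against 3.06, 5.17, 3.85 and 3.59 CPM in dKO_chow. In IL4KO it was at 2.51, 4.47 and 3.24 CPM on HFD against 8.35, 7.13, 9.29 and 10.6 CPM on chow. WT_HFD had 5.91, 4.62, 5.96 and 3.11 CPM against 12.1, 6.85, 9.51 and 6.67 CPM in WT_chow. Diets did not overlap in WT (-0.86, SE 0.247, FDR 0.0173) or IL4KO (-1.36, SE 0.297, FDR 0.00689), and the diet effect in dKO was -0.58 (FDR 0.0724). Against WT, Id1 fell in dKO by 1.15 on chow (FDR 0.000588) and by 0.87 on HFD (FDR 0.0189). Against IL4KO it fell in dKO by 1.15 on chow (FDR 0.000661) and was at -0.37 on HFD (FDR 0.536). Leaving out WT_chow replicate 1 or WT_HFD replicate 4 took the diet effect in WT to FDR 0.0674 and 0.0737, and leaving out WT_HFD replicate 1 or 3 or dKO_HFD replicate 2 took dKO against WT on HFD to FDR 0.0529 to 0.0793, as did a fit of the compared groups (FDR 0.0557). No interaction of Id1 passed.

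Of 27 tested genes of BMP-SMAD control of hepcidin, 10 rose and 4 fell in dKO against WT on chow, where 24.4% of all genes rose and 21.9% fell (median 0.23, against 0.0239 for all genes). The receptor-activated SMAD genes Smad1 (0.63, FDR 3.1e-05) and Smad5 (0.40, FDR 0.000345) and the inhibitory Smad6 (0.62, FDR 0.000353) rose. Bmp2, which endothelial cells also make to drive hepcidin, fell by 0.81 (FDR 1.91e-05), Tmprss6 fell by 0.35 (FDR 0.000519) and the protease gene Furin fell by 0.29 (FDR 0.00406). Hfe, a gene of hereditary iron overload, was at 44.5 ± 1.40 CPM in dKO_chow and 48.7 ± 4.86 CPM in WT_chow (SD, n = 4 each, FDR 0.144). The diet effect in WT called 2 of the 27 higher and 7 lower, against 9.63% and 9.84% of all genes, with the hemojuvelin gene Hfe2 higher (0.47, FDR 0.00209), Tmprss6 lower (-0.34, FDR 0.00285) and the BMP target Id3 lower (-0.71, FDR 0.0115). In IL4KO 0 rose and 4 fell with HFD, against 5.14% and 3.94% of all genes, among them the feedback inhibitors Smad6 (-0.65, FDR 0.00665) and Smad7 (-0.94, FDR 0.00071). Smad6 was higher in IL4KO than in WT on chow (0.95, FDR 5.34e-05), as was Smad7 (0.44, FDR 0.0316).

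Several genes of the inflammatory arm rose in dKO against WT on chow, where Hamp fell. Of 17 tested genes of STAT3 and inflammatory control of hepcidin, 10 rose and 2 fell, against 24.4% and 21.9% of all genes (median 0.619, against 0.0239 for all genes). The acute phase gene Saa1 was at 4678 ± 1340 CPM in dKO_chow and 154 ± 249 CPM in WT_chow (4.93, FDR 0.0084). Socs3, a feedback target of STAT3, was at 49.1 ± 7.85 CPM in dKO_chow and 10.1 ± 6.54 CPM in WT_chow (SD, n = 4 each, FDR 0.00572). The siderophore-binding Lcn2 rose by 5.21 (FDR 0.0015), the gp130 receptor gene Il6st by 0.45 (FDR 0.000438) and Il1b by 1.95 (FDR 0.000512), and Il6ra fell by 0.56 (FDR 0.0361). Il6 itself had 0 or 1 count in a library. Neutrophil markers moved with these genes in the values given above.

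Tfrc, which takes up transferrin-bound iron and carries stabilising IREs, was higher in dKO on chow and on HFD in WT. It stood at 49.2, 17.6, 49.6 and 150 CPM in dKO_HFD against 64.1, 51.7, 40.6 and 125 CPM in dKO_chow. IL4KO had 55.8, 49.7 and 13.4 CPM on HFD against 15.7, 19.3, 21.3 and 14.1 CPM on chow. WT_HFD had 55.1, 49.6, 51.3 and 71.5 CPM against 19.6, 17.5, 15.8 and 21.6 CPM in WT_chow. The diets did not overlap in WT, and in IL4KO replicate 3 on HFD lay below every chow library. Tfrc rose by 1.92 in dKO against WT on chow (SE 0.527, FDR 0.00664) and by 2.0 against IL4KO (SE 0.538, FDR 0.00586). The diet effect passed in WT (1.62, SE 0.529, FDR 0.0398), and leaving out any of the 8 WT libraries took it to FDR 0.0533 to 0.0939. It was also lost with no filter, limma-voom and thinning (FDR 0.0522 to 0.0554), and was called in 24 of 35 alternatives. The diet effect did not pass in IL4KO (1.18, FDR 0.213) or dKO (-0.09, FDR 0.898). Without dKO_HFD replicate 4 the diet effect in dKO differed from that in WT (-2.47, FDR 0.00517) and in IL4KO (-2.05, FDR 0.0203), against -1.71 (FDR 0.0887) between dKO and WT in all libraries. Erythroid markers, whose cells carry much Tfrc, summed to 840 CPM in dKO_HFD replicate 4, against 68.2 to 244 CPM in the other dKO_HFD libraries. In dKO_chow replicate 4, with Tfrc at 125 CPM, they summed to 243 CPM, within the 130 to 485 CPM of that group, and their part in Tfrc was not tested.

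Tfr2, a liver sensor of transferrin iron that acts upstream of hepcidin, fell with HFD in WT. It was at 332, 431, 396 and 341 CPM in WT_HFD against 483, 604, 492 and 503 CPM in WT_chow, with no overlap (-0.47, SE 0.141, FDR 0.0214). The call was lost without WT_chow replicate 2 or WT_HFD replicate 1 or 4 (FDR 0.0643 to 0.0741). The mean was 458 ± 27 CPM in dKO_HFD and 516 ± 17.9 CPM in dKO_chow (SD, n = 4 each, FDR 0.356). In IL4KO, 394, 283 and 540 CPM on HFD overlapped 532, 446, 629 and 520 CPM on chow (-0.39, FDR 0.11), and the effect was -0.65 without IL4KO_HFD replicate 3 (FDR 0.00468).

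Trf, the plasma iron carrier made by hepatocytes, was highest in dKO on chow. It stood at 13500, 12000, 12700 and 24200 CPM in dKO_HFD against 22000, 23400, 23700 and 24000 CPM in dKO_chow, and at 12500, 16000, 13700 and 13000 CPM in WT_chow. Replicates 1 to 3 of dKO_HFD lay in the WT_chow range or just below it, and replicate 4 lay above every dKO_chow library. Trf rose in dKO on chow by 0.75 against WT (SE 0.166, FDR 0.000931) and by 0.93 against IL4KO (SE 0.167, FDR 0.000131), and fell with HFD in dKO by 0.58 (SE 0.166, FDR 0.00826), a call lost in a fit of dKO alone (FDR 0.0804). Its diet effect was 0.11 in WT and 0.11 in IL4KO, and that in dKO differed from both (differences -0.68, FDR 0.0366, and -0.69, FDR 0.0423). Both interactions were lost without most single libraries (FDR 0.0506 to 0.0946 and 0.0502 to 0.1). The Trf gene overlaps Gm20425 on the same strand.

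Slc40a1, the exporter that hepcidin removes from the membrane, fell in dKO on chow against both WT and IL4KO. It was at 132, 115, 137 and 122 CPM in dKO_chow against 164, 171, 134 and 186 CPM in WT_chow, with WT_chow replicate 3 inside the dKO range (-0.38, SE 0.106, FDR 0.00609). Against IL4KO_chow, at 175 to 191 CPM, it fell by 0.53 with no overlap (FDR 0.000351). On HFD it was at 117, 136, 172 and 123 CPM in dKO against 151 to 177 CPM in WT (-0.25, FDR 0.0875), and without dKO_HFD replicate 3 the change was -0.38 (FDR 0.00657). No diet effect passed, at -0.01 in WT, -0.14 in IL4KO and 0.12 in dKO.

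The ferritin genes encode the heavy and light chains of the iron storage shell. Against WT, Ftl1 was called lower in dKO on both diets, and Fth1 was called lower on HFD. Ftl1 was at 1160, 1570, 1230 and 1220 CPM in dKO_chow against 2290, 1830, 1900 and 1790 CPM in WT_chow. On HFD it was at 1620, 1410, 1580 and 956 CPM in dKO against 2510, 2120, 2310 and 2320 CPM in WT. The genotypes did not overlap on either diet, and Ftl1 fell in dKO by 0.59 on chow (SE 0.157, FDR 0.0041) and by 0.73 on HFD (SE 0.157, FDR 0.00206). Fth1 was at 1210, 1090, 1360 and 971 CPM in dKO_HFD against 1640, 1400, 1610 and 1530 CPM in WT_HFD (-0.42, SE 0.122, FDR 0.0156). On chow it was at 980 to 1100 CPM in dKO against 1150 to 1170 CPM in WT, with no overlap, and did not pass against WT (-0.15, FDR 0.311) or IL4KO (-0.27, FDR 0.0713). The gene rose with HFD in WT by 0.41 (SE 0.122, FDR 0.0212), where WT_chow lay between 1150 and 1170 CPM, and was at 0.15 in dKO (FDR 0.358). The difference between these diet effects did not pass (-0.26, FDR 0.265). The call in WT was lost without any of 5 WT libraries, WT_chow replicates 2 to 4 and WT_HFD replicates 1 and 3 (FDR 0.05 to 0.0634). Against IL4KO on HFD both ferritin genes fell in dKO (Fth1 -0.54, FDR 0.0323, and Ftl1 -0.63, FDR 0.0471), but the Fth1 call was lost without IL4KO_HFD replicate 1 or 2 or dKO_HFD replicate 2 or 4 (FDR 0.08 to 0.249), and the Ftl1 call without 18 of the 23 single libraries (FDR 0.0523 to 0.242). Fth1 on HFD in IL4KO was at 1800, 2020 and 1210 CPM against 1190 to 1330 CPM on chow (0.41, FDR 0.052), and without replicate 3 its diet effect was 0.60 (FDR 0.00136), while without replicate 2 it was 0.26 (FDR 0.363). The highest value, 2020 CPM, was in IL4KO_HFD replicate 2, the library with shifted cell markers, and their part in it was not tested.

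**Figure D4:**
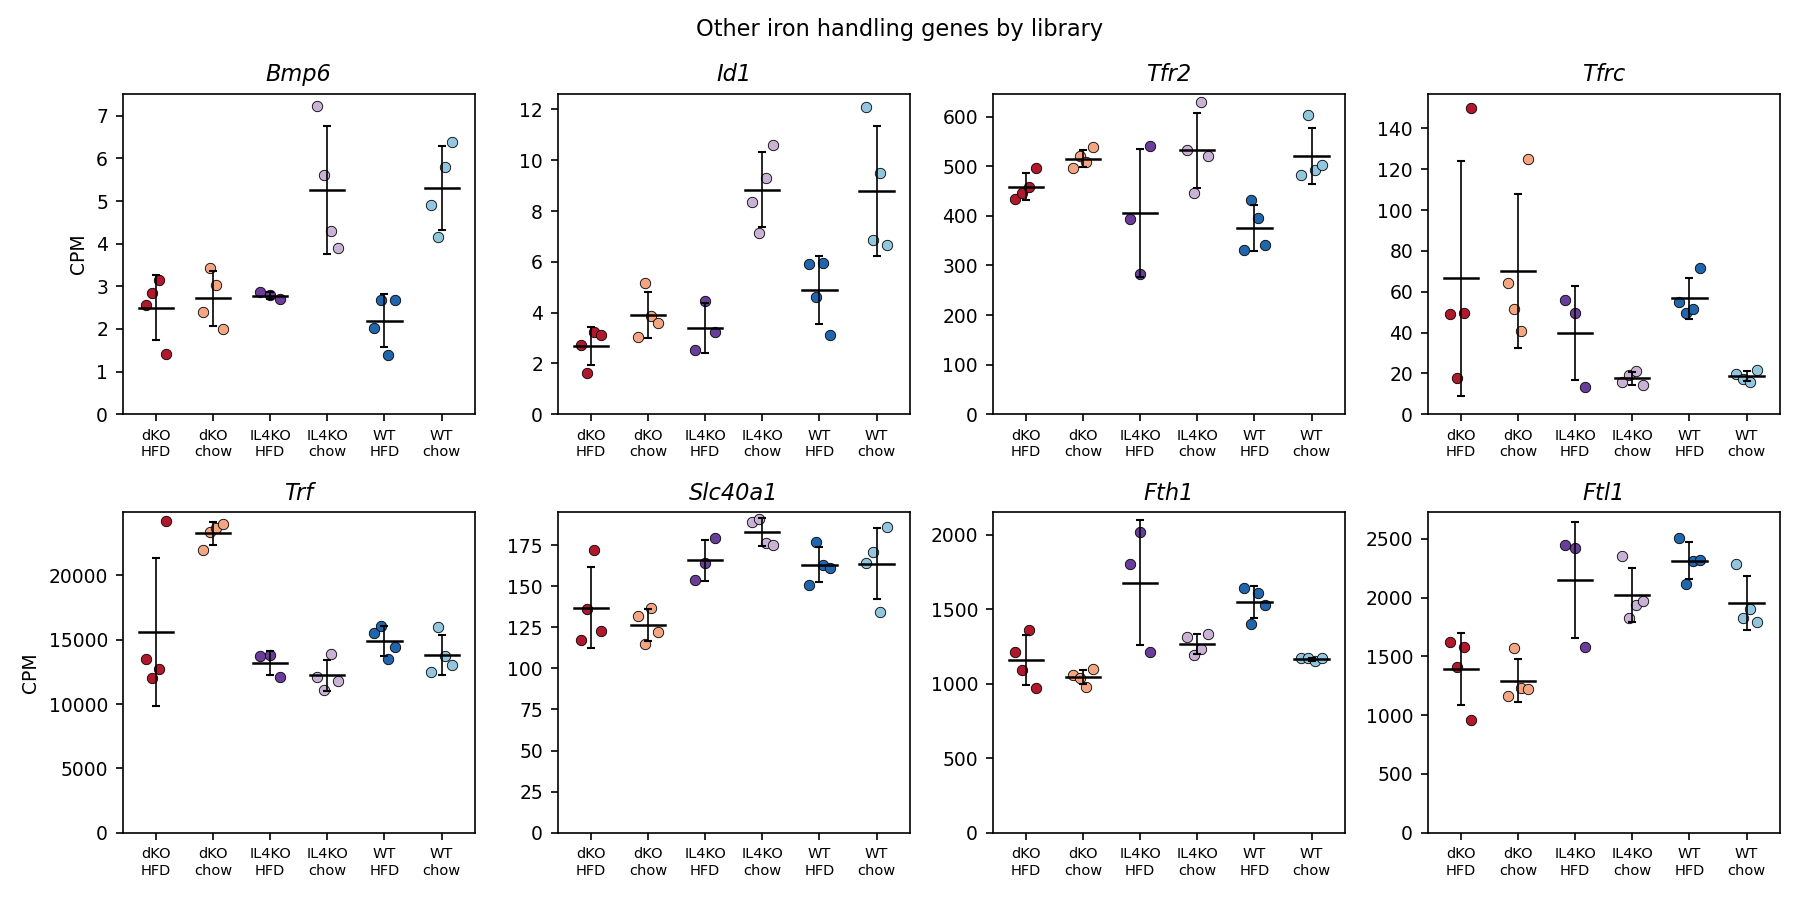
CPM of the other 8 iron genes in each library, with the group mean and SD (linear axes from 0). Trf in dKO_chow lay between 22000 and 24000 CPM with dKO_HFD replicate 4 at 24200 CPM, and Ftl1 in dKO lay at or below 1620 CPM on both diets.

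Many genes of iron-sulfur cluster assembly, heme synthesis, and iron regulatory proteins and ferritin turnover fell in dKO against WT on chow. Of 22 tested genes of iron-sulfur cluster assembly, 1 rose and 12 fell, against 24.4% and 21.9% of all genes (median -0.286, against 0.0239 for all genes), with the cysteine desulfurase gene Nfs1 at -0.53 (FDR 8.56e-06), the scaffold gene Iscu at -0.53 (FDR 0.000166), the ferredoxin gene Fdx1 at -0.69 (FDR 7.04e-06) and the mitochondrial chaperone gene Hspa9 at -0.54 (FDR 2.71e-05). Of 12 heme synthesis genes 0 rose and 7 fell (median -0.322), with the ferrochelatase gene Fech at -0.59 (FDR 1.5e-05), Cpox at -0.81 (FDR 6.1e-05) and the erythroid enzyme gene Alas2 at -0.83 (FDR 0.00014). Alas1, the rate-limiting heme enzyme of liver, was at 263 ± 52.2 CPM in dKO_chow and 489 ± 273 CPM in WT_chow (SD, n = 4 each, FDR 0.0712). Of 6 genes of iron regulatory proteins and ferritin turnover 0 rose and 4 fell (median -0.322), namely Aco1 (-0.51, FDR 0.00011) and Ireb2 (-0.41, FDR 0.00977), which encode the proteins that bind IREs, the ferritin receptor gene Ncoa4 (-0.50, FDR 0.0065) and the iron chaperone gene Pcbp2 (-0.23, FDR 0.00732). With HFD in dKO, 8 of 22, 5 of 12 and 3 of 6 genes of these lists were called higher and 1, 1 and 0 lower, where 19.4% of all genes were higher and 20.5% lower. Aco1 was at 275 ± 37.2 CPM in dKO_HFD and 195 ± 11.5 CPM in dKO_chow (SD, n = 4 each, 0.49, FDR 0.000235). Hepatocyte markers summed to 158000 to 167000 CPM in dKO_HFD against 106000 to 123000 CPM in dKO_chow, with no overlap, and their part was not tested.

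Several scavenger and carrier genes of the plasma rose in dKO against WT on chow. Of 16 tested genes of iron transport and reduction 8 rose and 2 fell, against 24.4% and 21.9% of all genes (median 0.40, against 0.0239 for all genes), with the ferroxidase gene Cp at 3658 ± 396 CPM in dKO_chow and 1603 ± 88.7 CPM in WT_chow (SD, n = 4 each, 1.19, FDR 1.38e-06). The importer gene Slc11a2 rose by 1.2 (FDR 2.94e-05) and the ferrireductase gene Steap4 by 1.85 (FDR 3.57e-05). Ltf, which encodes lactoferrin of neutrophil granules, rose by 5.90 (FDR 0.00034). Of 12 genes of heme scavenging, breakdown and export 5 rose and 2 fell, against the same shares of all genes (median 0.152), with the haptoglobin gene Hp at 1.83 (FDR 3.02e-05), the hemopexin gene Hpx at 1.84 (FDR 0.000302) and the macrophage receptor gene Cd163 at 1.58 (FDR 0.000291). With HFD in dKO, Cp (-0.98, FDR 1.82e-05), Hp (-1.26, FDR 0.00112) and Hpx (-1.34, FDR 0.00438) fell, as Trf did.

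Within groups, 8 pairs of genes were related over the 23 libraries, as deviations of log2 CPM from the group mean, with two-sided permutation tests and adjustment over the 8 pairs. Fth1 and Ftl1 deviated together (Pearson r 0.756, permutation p 0.00333, adjusted 0.0266; Spearman rho 0.586, permutation p 0.0125, adjusted 0.1), and r was 0.696 without the 2 libraries farthest from the median, IL4KO_HFD replicates 2 and 3. Hamp and Tfrc had r of -0.79 (permutation p 0.0195, adjusted 0.0613) and rho of -0.543 (permutation p 0.0389, adjusted 0.156), with r of -0.60 without IL4KO_HFD replicate 3 and dKO_HFD replicate 4. Bmp6 and Hamp had r of 0.50 (permutation p 0.0502, adjusted 0.1) with rho of 0.242 (permutation p 0.292), and Id1 and Hamp had r of 0.101 (permutation p 0.731) with rho of 0.321 (permutation p 0.208). No other pair passed the adjustment. Likeness to Hamp in log2 CPM was ranked across all 23 libraries with groups left in, among tested genes with predicted genes left out. Enpep, which encodes an aminopeptidase, came first (Pearson r 0.923, and 0.742 for deviations from group means). Ppp1ca (0.859) and Snhg11 (0.839) followed. These libraries differ in group means and depth, which enter the likeness, so it is a description.

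**Figure D5:**
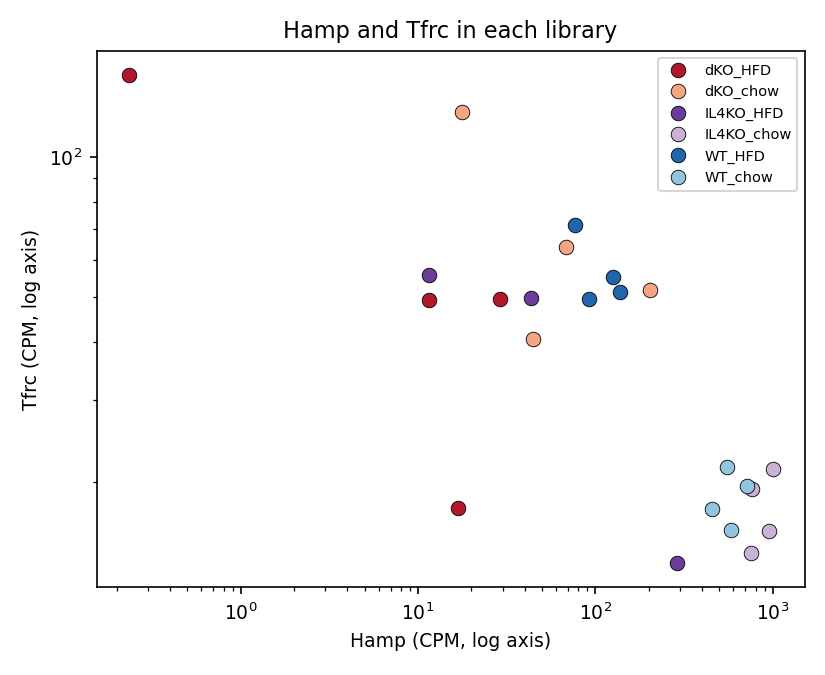
CPM of Hamp (x axis) and Tfrc (y axis) in each of the 23 libraries, on log axes and coloured by group. dKO_HFD replicate 4 has the lowest Hamp, 0.234 CPM, and the highest Tfrc, 150 CPM.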

How the data were processed

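Liver RNA was sequenced as 23 libraries after a stranded mRNA kit, per the labels. bcl2fastq 2.16, TopHat2 2.0.8 and Partek are named, per the submitters' processing notes, and neither these notes nor the labels give the annotation or the rule for shared reads. Estimated counts of 24440 genes, as deposited, were whole numbers for 88.5% to 94.3% of genes in a library. A deposited table of log2 values (14078 genes) served as an alternative. Counts were rounded and fitted in edgeR 4.0.16 (R 4.3.3) with TMM scaling, a filter by group that left 12891 genes, and 1 robust quasi-likelihood fit of the 6 group means (17 residual degrees of freedom). P-values of these tests were adjusted by Benjamini-Hochberg over the 12891 genes (FDR) and called below 0.05. Fold changes are log2, CPM use the same scaling, and the SE is the absolute log2 fold change divided by the square root of F. Alternatives used DESeq2 1.42.0, limma 3.58.1, other scaling, filters and fits, thinning, and each library left out. The pipeline was tested on simulated data. The labels do not state that each library came from a separate mouse, so p-values measure the spread between these libraries, which may be partly technical, and replicates were numbered in accession order.

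The 10 genes, the gene lists and the tests were chosen with earlier results of these data known. Named genes are the 10 members, Il4 and Il10, up to 4 called genes per list by FDR in dKO against WT on chow with up to 2 further over the other pairwise comparisons, 8 regulators named whatever their values, and the 3 genes most like each of 5 members. Predicted genes were left out of that likeness. An exact permutation test of the Hamp2 share between diets, chosen after its values were seen, was run and withdrawn, and its p-values are not reported. The fit that drops both dKO_HFD replicate 4 and IL4KO_HFD replicate 3 was also chosen after seeing the data.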

Additional observations from a re-analysis of the deposited data

Results flagged for a closer look

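Of 50 sets of 4 libraries examined (10 genes in 5 groups), 5 held a library far from the other 3 by Dixon's criterion, where chance gives about 1 in 20. Trf was at 24200 CPM in dKO_HFD replicate 4, against 12000 to 13500 CPM in the others. In dKO_chow replicate 2, Hamp2 was at 4.81 CPM against 0.187 to 0.584 CPM, and Ftl1 was at 1570 CPM against 1160 to 1230 CPM. Tfr2 was at 604 CPM in WT_chow replicate 2 against 483 to 503 CPM. Fth1 was at 1150 CPM in WT_chow replicate 3, a small gap in a group whose other libraries were near 1170 CPM.

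The diet effect differed between genotypes, by the interaction term in edgeR, for 2 genes. For Trf the log2 difference was -0.684 between dKO and WT (FDR 0.0366) and -0.688 between dKO and IL4KO (FDR 0.0423), with Trf lower on HFD in 3 of 4 dKO libraries. For Bmp6 it was 1.13 between dKO and WT (FDR 0.0228), where Bmp6 fell with HFD in WT without overlap and the dKO diets overlapped.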

How the results depend on the processing

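Over 35 alternatives and 12 comparisons, the values of the 10 genes stayed on their side of the threshold in 4025 cases. They lost a call in 117 and gained one in 58. No value that was called in the main fit or in the alternative changed sign between them. Values called in neither could change sign, as Hamp did in IL4KO against WT on HFD (-1.98 to 0.626). Scaling moved the median of all genes by less than 0.1. No paired analysis was possible because the labels carry no replicate numbers that link mice across groups.

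Leaving out each library in turn gave, for the iron genes called, 2 to 6 for diet effect in WT, 1 to 4 for diet effect in IL4KO, 1 to 3 for diet effect in dKO, 3 to 6 for dKO against WT on HFD, 7 to 8 for dKO against IL4KO on chow, 0 to 3 for dKO against IL4KO on HFD, 1 to 3 for diet effect in dKO minus in WT, 0 to 3 for diet effect in dKO minus in IL4KO. The counts were unchanged at 0 in both comparisons of IL4KO with WT and in the IL4KO minus WT interaction, and at 8 in dKO against WT on chow. For all genes called, the same ranges were 1751 to 2920 for diet effect in WT, 236 to 2030 for diet effect in IL4KO, 3942 to 5962 for diet effect in dKO, 828 to 1481 for IL4KO against WT on chow, 185 to 631 for IL4KO against WT on HFD, 5196 to 6411 for dKO against WT on chow, 2403 to 3475 for dKO against WT on HFD, 5071 to 6232 for dKO against IL4KO on chow, 39 to 1241 for dKO against IL4KO on HFD, 3 to 10 for diet effect in IL4KO minus in WT, 2130 to 4457 for diet effect in dKO minus in WT, 1293 to 4190 for diet effect in dKO minus in IL4KO. Fits of the compared groups alone called 0 iron genes for the effect of HFD in dKO, 1 in IL4KO, 2 in IL4KO against WT on chow, 2 in dKO against WT on HFD, 0 in dKO against IL4KO on HFD, 1 in the dKO minus WT interaction and 0 in dKO minus IL4KO. In dKO against IL4KO on HFD the count was 1 with no filter, without robust estimation, with limma-voom or after thinning, and 0 with the deposited log2 values. In the diet effect in IL4KO it was 1 with no filter or after thinning and 4 with DESeq2. The dKO minus WT interaction gave 1 with the log2 values and dKO minus IL4KO gave 0 with no filter.

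Without both dKO_HFD replicate 4 and IL4KO_HFD replicate 2, 1 iron gene was called in the diet effect in IL4KO and 0 in dKO against IL4KO on HFD, and the relation of Fth1 and Ftl1 was 0.675 (permutation p adjusted 0.16). Without both dKO_HFD replicate 4 and IL4KO_HFD replicate 3, chosen after seeing the data, 6 were called in the diet effect in IL4KO and 5 in dKO minus IL4KO. Under the first and the second of these pairs, all genes called came to 516 and 2413 for HFD in IL4KO and 40 and 1116 in dKO against IL4KO on HFD, with 4818 in dKO minus WT under the first, 4698 in dKO minus IL4KO under the second, 853 in IL4KO against WT on HFD under the first and 18 in IL4KO minus WT under the second. Fits of the compared groups called 528, 95, 4 and 21 genes for HFD in IL4KO, IL4KO against WT on HFD, dKO against IL4KO on HFD and IL4KO minus WT. dKO against IL4KO on HFD gave 589 with DESeq2, 202 with limma-voom, 168 with the log2 values and 200 after thinning, and IL4KO minus WT gave 68 with DESeq2 and 13 with the log2 values. Hpx in dKO against WT on HFD reversed to -0.632 without dKO_HFD replicate 4 and IL4KO_HFD replicate 2, and to -0.621 without dKO_HFD replicate 4 alone, against 0.08 in all libraries and a highest value of 0.289 without dKO_HFD replicate 2. The causes were not tested. Bmp6 and Id1 were low in counts, which limits the precision of their values.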
